A study of Homo sapiens with 8 samples.

Results

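NAT10, the RNA cytidine acetyltransferase that the study silenced, and the 3 human genes named for a THUMP domain, THUMPD1, THUMPD2 and THUMPD3, were described in colorectal cancer cells. The 4 genes were taken by their symbols and Entrez identifiers from a table of 17309 genes, and all 4 passed the filter on low counts. RNA-seq had been done on 2 established human lines from colorectal cancer, SW480 and DLD-1, whose genotype is labelled WT. Each line had been infected with lentivirus carrying a control hairpin (shControl) or a hairpin against NAT10 (shNAT10), so that every group, the controls included, carried a hairpin vector. Each of the 4 groups (SW480 shControl, SW480 shNAT10, DLD-1 shControl and DLD-1 shNAT10) held 2 libraries labelled as biological replicates, 8 in all. The study made stable lines with 2 hairpins against NAT10, and the labels do not say which of them was sequenced.

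NAT10 transfers an acetyl group from acetyl-CoA to cytidine, giving N4-acetylcytidine (ac4C). It does so in 18S ribosomal RNA, where it works within the machinery that builds the small ribosomal subunit, and in serine and leucine transfer RNAs, and it has also been reported to act on messenger RNA, the activity the study followed in colorectal cancer. THUMPD1, the human counterpart of yeast Tan1, has no known catalytic activity of its own and presents transfer RNA to NAT10. THUMPD2 and THUMPD3 share the RNA-binding THUMP domain but are methyltransferases that work together with TRMT112, on U6 small nuclear RNA and on transfer RNA respectively, so that the term acetylation adaptor fits only THUMPD1 among the 3.

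The sequences of both NAT10 hairpins are shown first, because they define which part of the NAT10 mRNA was attacked and can be searched for in the other members. The target of each is given 5′ to 3′ as it stands in the mRNA, followed by the antisense strand of the hairpin with its seed (bases 2 to 8) in capitals.
shNAT10-1 target: ggccaaagctgtcttgaaa
shNAT10-1 antisense: tTTCAAGAcagctttggcc
shNAT10-2 target: cagtgacgacctagatgaa
shNAT10-2 antisense: tTCATCTAggtcgtcactg
Both targets are 19 bases long and lie in the coding sequence of NAT10. In GENCODE v29 on GRCh38, NAT10 covers chr11:34105602-34147670 on the plus strand, and its longest mRNA (ENST00000257829.7, 29 exons, 4002 bases) has a 5′UTR of 206 bases, a coding sequence of 3075 bases and a 3′UTR of 721 bases. The shNAT10-1 target occupies bases 986 to 1004 of this mRNA and crosses the junction of exons 8 and 9, with its ends at chr11:34118503-34122476. The shNAT10-2 target occupies bases 3005 to 3023 and crosses the junction of exons 26 and 27, with its ends at chr11:34141805-34142280. Because each target spans an intron, neither stands unbroken at its place in the genome, and each matched only NAT10 among all annotated transcripts. The rest of the genome sequence was not searched. Of 10 annotated NAT10 transcripts 3 hold each target, which is 3 of the 5 that code for protein, and both RefSeq NAT10 mRNAs counted here correspond to transcripts that hold them.

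The NAT10 primers that the study used for qRT-PCR also lie on this mRNA. The forward primer matched bases 780 to 801 in exon 7 and the reverse primer bases 1008 to 1029 in exon 9, which gives an amplicon of 250 bases. The shNAT10-1 target lies inside this amplicon just before the reverse primer site, and the shNAT10-2 target lies outside it.

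**Figure D1:**
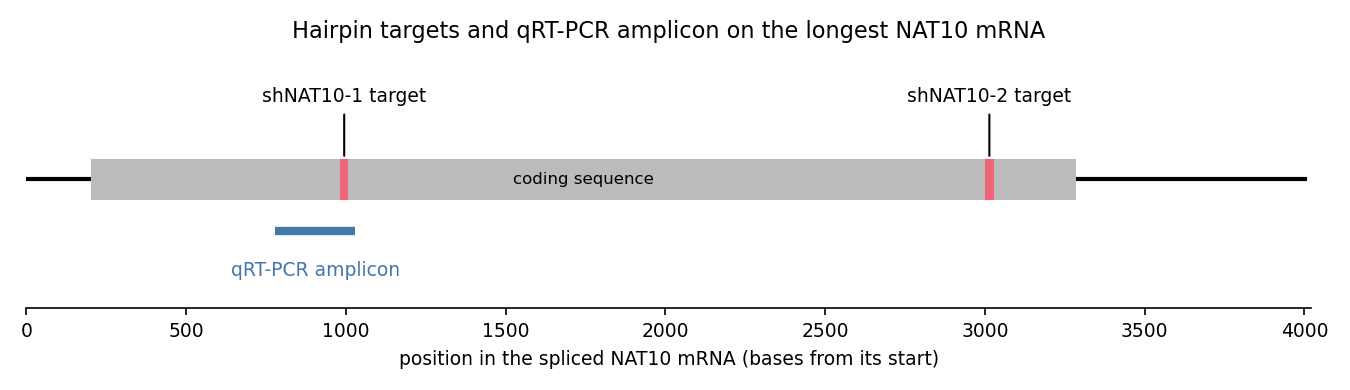
Map of the spliced NAT10 mRNA ENST00000257829.7, with the position in bases from its start on the x axis, the coding sequence as a grey box, the hairpin targets in red and the qRT-PCR amplicon in blue. The shNAT10-1 target (986 to 1004) falls within the amplicon (780 to 1029), and the shNAT10-2 target (3005 to 3023) lies near the end of the coding sequence.

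Poly(A)-selected RNA had been sequenced single-end, and the libraries held 15147805 to 17271336 estimated counts. Levels are given as CPM (the count of a gene per 1000000 counts of its library, after TMM scaling), with the mean ± SD over the 2 libraries of a group, and 13619 genes were tested. Marker levels in this paragraph are CPM without TMM scaling. Of 8 markers of colorectal epithelium, 7 had at least 1 CPM on average in both SW480 groups and 8 in both DLD-1 groups, with KRT20 under 0.2 CPM in SW480 shControl. Summed over the list they reached 3031 to 3652 CPM in SW480 and 7107 to 7621 CPM in DLD-1. Of 6 markers of other cell types 5 were in the table, and they summed to 0.175 to 2.40 CPM, with CD3E, COL1A2 and PECAM1 under 0.2 CPM in every group. COL1A1, a fibroblast marker, held most of the sum in SW480. It had 2.28 and 2.13 CPM in SW480 shControl, 1.80 and 1.64 CPM in SW480 shNAT10 and 0.117 to 0.595 CPM in DLD-1. LYZ reached 0.357 CPM in DLD-1 shControl replicate 2. The replicates of SW480 shNAT10 were the least alike, with a chi-square per degree of freedom of 9.35 between their counts against 3.21 to 4.44 in the other groups.

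NAT10 was lower in both shNAT10 groups, and the fall was deeper in SW480. In SW480 shControl the level was 122.3 and 122.5 CPM, and in SW480 shNAT10 it was 23.6 and 27.9 CPM. In DLD-1 shControl it was 121.1 and 120.5 CPM, and in DLD-1 shNAT10 it was 59.0 and 54.4 CPM. All 4 shNAT10 libraries lay below all 4 shControl libraries, and the SW480 shNAT10 libraries lay below those of DLD-1.

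The group means were 122 ± 0.106 and 25.7 ± 3.06 CPM in SW480 and 121 ± 0.404 and 56.7 ± 3.25 CPM in DLD-1 (SD, n = 2). The 2 SW480 libraries therefore kept 19.3% and 22.8% of the NAT10 level of their controls, and the 2 DLD-1 libraries kept 48.8% and 45.0%. In bulk RNA, fewer cells that carry a transcript and less of it per cell cannot be told apart. The log2 fold change was −2.25 ± 0.087 (SE; 95% interval −2.44 to −2.06) in SW480, with an adjusted p of 3.7e-09 by edgeR's quasi-likelihood test. In DLD-1 it was −1.09 ± 0.081 (−1.26 to −0.92; adjusted p 2.7e-05). Adjusted p-values are Benjamini-Hochberg values over all genes tested, and genes with an adjusted p under 0.05 are called changed.

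The question whether NAT10 was lowered equally in both lines was tested as an interaction. The labels do not say whether both lines carried the same NAT10 hairpin, so a difference between the lines and one between hairpins cannot be told apart. The log2 fold change in SW480 was lower than that in DLD-1 by 1.16, with a difference of −1.16 ± 0.118 (95% interval −1.41 to −0.91) and an adjusted p of 0.0015 by edgeR's quasi-likelihood test. NAT10 was the only gene of the 13619 tested for which this difference was called, a share of 0.00734%. It was no longer called without DLD-1 shNAT10 replicate 1, where the difference was −1.10 with an adjusted p of 0.073. With NM transcripts only, with log2(FPKM + 1) and with log2(FPKM + 0.1) the adjusted p was 0.076, 0.14 and 0.084, while the difference itself was −1.16, −1.09 and −1.18. The starting levels were close. SW480 shControl exceeded DLD-1 shControl by a log2 fold change of 0.019 ± 0.078 (95% interval −0.15 to 0.19), with an adjusted p of 0.84, in a comparison where 73.8% of genes were called. From high to low the NAT10 levels were ordered SW480 shControl, DLD-1 shControl, DLD-1 shNAT10 and SW480 shNAT10, and only the first neighbours in this order did not pass a test or stand clearly apart, since SW480 shControl was at 101.3% of DLD-1 shControl, although their libraries did not overlap. DLD-1 shNAT10 cells held 2.2 times the NAT10 level of SW480 shNAT10 cells.

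**Figure D2:**
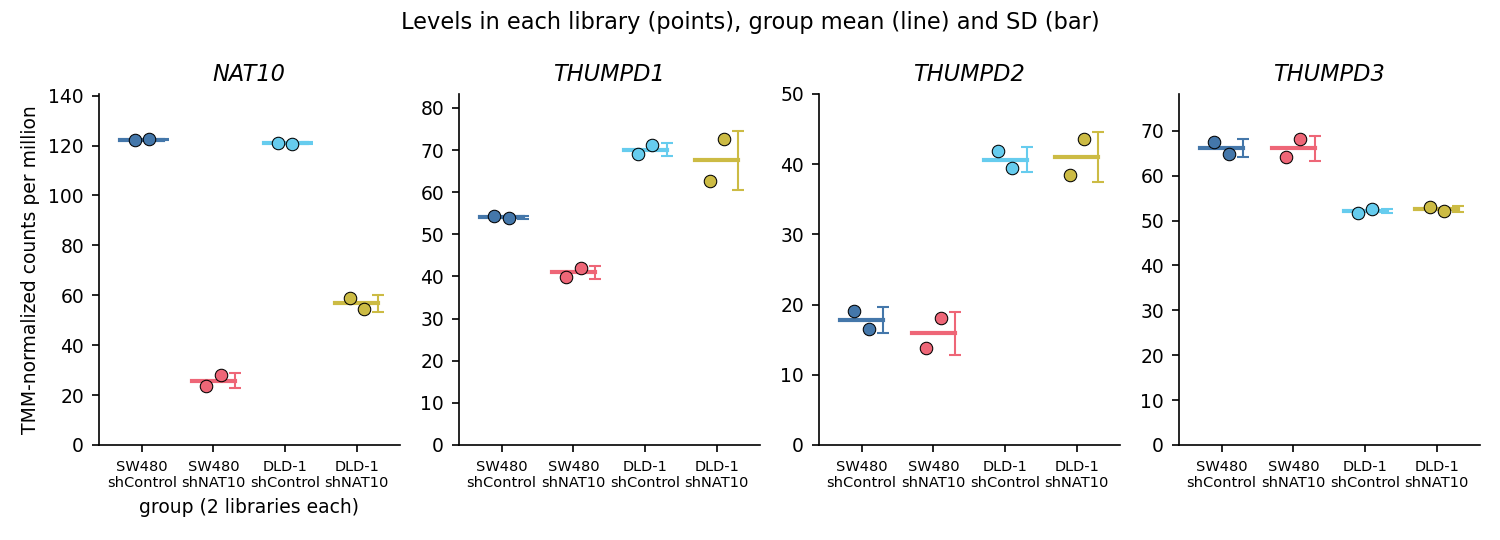
TMM-scaled CPM (y axis, from 0, on a separate scale for each gene) of NAT10, THUMPD1, THUMPD2 and THUMPD3 in the 4 groups. Points are libraries, lines are group means and bars are SD (n = 2); NAT10 falls from about 122 to 25.7 CPM in SW480 and from 121 to 56.7 CPM in DLD-1, while THUMPD2 and THUMPD3 differ mainly between the lines.

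The NAT10 reads were assigned almost wholly to 1 transcript. The table holds 2 NAT10 transcripts, NM_024662.3 and NM_001144030.2, the latter corresponding to a GENCODE mRNA with 27 exons. In SW480, NM_024662.3 held estimated counts of 2060 and 2092 with the control hairpin and of 401 and 477 with shNAT10, and in DLD-1 of 2062 and 2010 with the control hairpin and of 1002 and 829 with shNAT10. NM_001144030.2 was given 26.8 counts in SW480 shControl replicate 1 and 26.4 in DLD-1 shControl replicate 2, about 1.3% of the gene, and 0 in the other 6 libraries. In both lines it was present in 1 control library and absent from the other, so its absence from the shNAT10 libraries, where NAT10 held at most 1002 counts, was not distinguishable from the spread between controls. By these estimates the fall of NAT10 was carried by NM_024662.3 in both lines. Reads common to both transcripts had been divided between them by the counting, and the division was not tested.

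THUMPD1, which presents transfer RNA to NAT10, was the other member that changed, and it was called in SW480 but not in DLD-1. Its level was 54.3 and 53.8 CPM in SW480 shControl and 39.9 and 42.1 CPM in SW480 shNAT10. In DLD-1 it was 69.1 and 71.2 CPM in shControl and 62.7 and 72.5 CPM in shNAT10. Both SW480 shNAT10 libraries lay below both of their controls, whereas the DLD-1 shNAT10 libraries lay on either side of theirs.

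In SW480 the log2 fold change of THUMPD1 was −0.40 ± 0.084 (SE; 95% interval −0.58 to −0.22), with an adjusted p of 0.031 by edgeR's quasi-likelihood test, or 75.8% of the control mean. In DLD-1 it was −0.054 ± 0.081 (−0.23 to 0.12; adjusted p 0.98), or 96.4% of the control mean. The 2 effects were not shown to differ. The interaction was −0.35 ± 0.116 (−0.60 to −0.096), with an unadjusted p of 0.0101 and an adjusted p of 0.48 by the same test. All 8 libraries shared 1 estimate of the spread, although the replicates of SW480 shNAT10 were the least alike. With each line fitted alone, the adjusted p of THUMPD1 in SW480 was 0.099 by the same test. The call in SW480 rested on a narrow margin. It was kept by DESeq2 (adjusted p 0.013) but lost in 5 of the 9 alternatives that used all libraries, with adjusted p-values of 0.090 to 0.18, and in 6 of the 8 fits that left out a library, with adjusted p-values up to 0.29, and was kept only without SW480 shNAT10 replicate 2 or without DLD-1 shNAT10 replicate 1. Across all of these the log2 fold change stayed between −0.46 and −0.35. For the FPKM values in this comparison, SW480 shNAT10 replicate 2 was dropped, since its file lacks some THUMPD1 transcripts.

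THUMPD1 covers chr16:20702816-20742084 on the minus strand of GRCh38, where it overlaps ACSM3 on the opposite strand. No source used here describes the counting as using strand, so reads in the overlap cannot be assigned with certainty. ACSM3, an acyl-CoA synthetase gene, held 47.9 to 75.02 estimated counts in the SW480 libraries against 678 to 927 for THUMPD1, and its log2 fold change was 0.36 ± 0.20 in SW480 and 0.033 ± 0.154 in DLD-1, with adjusted p-values of 0.34 and 1 by edgeR's quasi-likelihood test.

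The THUMPD1 reads were divided between 2 main transcripts. The SW480 libraries held 437 and 421 estimated counts of NM_017736.5 with the control hairpin, against 246 and 233 with shNAT10. The DLD-1 libraries held 540 and 543 with the control hairpin, against 465 and 391 with shNAT10. In both lines the shNAT10 libraries were below both controls for this transcript. The transcript counts are not scaled for depth. DLD-1 shNAT10 replicate 2 had a total of 15147805 counts, against 17137422 and 16807199 in the DLD-1 controls.
For NM_001304550.2 the SW480 counts were 489 and 498 in the controls against 409 and 473 after knockdown, and the DLD-1 counts 619 and 643 against 579 and 701, so that its shNAT10 libraries were below both controls in SW480 and on either side of them in DLD-1. Its share of THUMPD1 counts was 53.4% ± 1.02 in the SW480 controls against 63.0% ± 3.83 after knockdown, and 53.1% ± 0.604 in the DLD-1 controls against 59.0% ± 6.36 after knockdown (SD, n = 2). These shares are estimates, because reads common to both transcripts had been divided between them, and neither they nor the difference between the transcripts was tested. Both identifiers are paired with the same GENCODE mRNA, ENST00000381337.6, which has a coding sequence of 1059 bases and a 3′UTR of 2718 bases. The remaining 2 THUMPD1 transcripts, both XM models, together held at most 3.4% of the gene in any library.

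**Figure D3:**
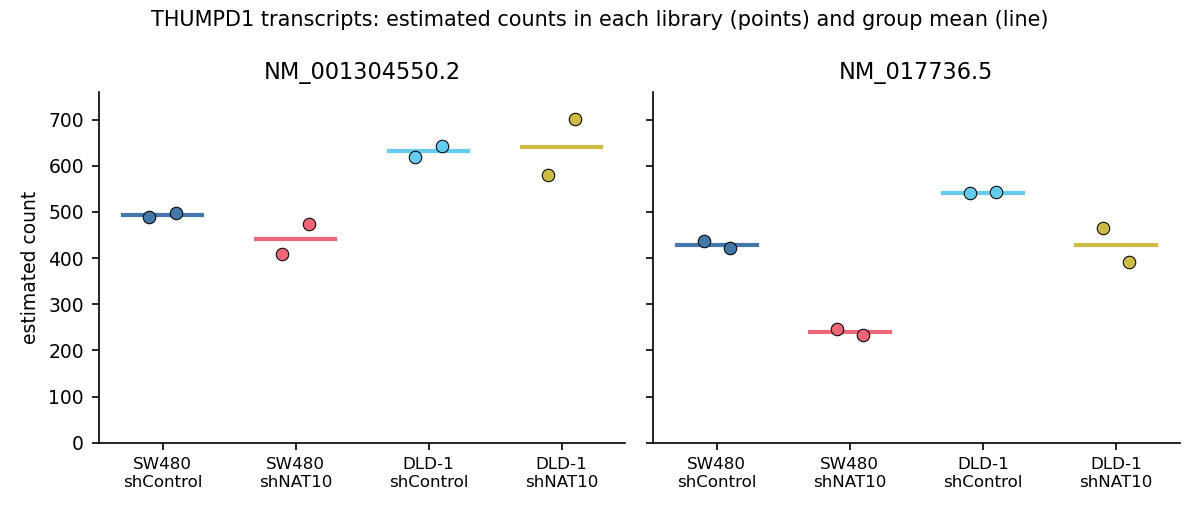
Estimated counts (y axis, from 0), not scaled for depth, of the THUMPD1 transcripts NM_001304550.2 and NM_017736.5 in the 4 groups, with points for libraries and lines for group means. NM_017736.5 falls from 437 and 421 to 246 and 233 counts in SW480 and from 540 and 543 to 465 and 391 in DLD-1, while the libraries of NM_001304550.2 overlap in DLD-1.

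The hairpin sequences were then searched for in the other members. THUMPD1 holds an unbroken run of 11 bases of the shNAT10-1 target, bases 4 to 14 of the target, in its coding sequence at chr16:20737200-20737210 in exon 4 (minus strand). It also holds a 7-base site for the shNAT10-1 seed in its 3′UTR at chr16:20735048-20735054. Both are shown with the matching bases in capitals.
THUMPD1 coding run: aaatcatCAAAGCTGTCTgttgcct
THUMPD1 seed site: agaggaatTCTTGAAatgttt
A run of 11 or more bases of this target occurs in 227 of 13060 tested genes with a protein-coding transcript sequence (1.74%), and the seed site (TCTTGAA) in the longest 3′UTR of 20.6% of genes, so the seed site by itself is common. For THUMPD2 and THUMPD3 the longest runs of the shNAT10-1 target were 7 and 6 bases, and their 3′UTRs hold no seed site of either hairpin. No seed site of shNAT10-2 (TAGATGA), which 10.6% of genes hold, was found in the 3′UTR of any member. The part of these matches in the THUMPD1 difference was not tested, and the sequenced hairpin is not named in the labels.

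TARS2, the mitochondrial threonyl-transfer RNA synthetase, is described because it was the only gene besides NAT10 called in DLD-1 and was among the genes whose pattern was most like that of NAT10. It holds a run of 15 bases of the shNAT10-1 target (bases 3 to 17), in capitals here, in its coding sequence at chr1:150498911-150498925 on the plus strand.
TARS2 coding run: cagagatCCAAAGCTGTCTTGAtttcctc
A run as long was found in 2 of 13060 genes, NAT10 and TARS2. The longest run of the shNAT10-2 target in TARS2 was 8 bases, which 28.95% of genes hold. Its longest 3′UTR holds 1 seed site of shNAT10-2, as in 10.6% of genes, and 0 of shNAT10-1. TARS2 had 42.1 and 37.9 CPM in SW480 shControl and 14.6 and 17.6 CPM in SW480 shNAT10, and 54.6 and 50.4 CPM in DLD-1 shControl and 31.0 and 29.02 CPM in DLD-1 shNAT10. Its log2 fold change was −1.31 ± 0.102 in SW480 and −0.81 ± 0.094 in DLD-1, with adjusted p-values of 2.5e-05 and 0.0039 by edgeR's quasi-likelihood test. The call in DLD-1 was lost without either DLD-1 shNAT10 library (adjusted p 0.11 and 0.12) or without DLD-1 shControl replicate 1 (0.16), and in 4 of the alternatives with all libraries (0.085 to 0.34). The part of these matches in the fall of TARS2 was not tested, and the labels do not name the sequenced hairpin.

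THUMPD2, the U6 methyltransferase, and THUMPD3, the transfer RNA methyltransferase, did not pass the test after knockdown in either line. THUMPD2 had 19.1 and 16.5 CPM in SW480 shControl and 13.8 and 18.1 CPM in SW480 shNAT10, and 41.9 and 39.4 CPM in DLD-1 shControl and 38.5 and 43.5 CPM in DLD-1 shNAT10. Its log2 fold change was −0.16 (95% interval −0.44 to 0.12) in SW480 and 0.012 (−0.22 to 0.25) in DLD-1, and the shNAT10 libraries overlapped the controls in both lines. THUMPD3 had 67.6 and 64.8 CPM in SW480 shControl and 64.1 and 68.1 CPM in SW480 shNAT10, and 51.7 and 52.5 CPM in DLD-1 shControl and 53.0 and 52.1 CPM in DLD-1 shNAT10.
The THUMPD3 groups overlapped in both lines. Its log2 fold change was −0.0022 (−0.16 to 0.15) in SW480 and 0.012 (−0.15 to 0.17) in DLD-1. The intervals leave room for changes of up to about 0.16 to 0.17 in log2 units for THUMPD3 in either direction, and for a wider range for THUMPD2, whose counts were the lowest of the 4 genes at 234 to 713 per library. The adjusted p-values of both genes in both lines lay between 0.52 and 1 by edgeR's quasi-likelihood test, and those of the interactions were 0.74 and 0.99.

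Across SW480, 2 of the 4 genes were called lower, NAT10 and THUMPD1, against 0.903% of all genes tested (1.68% called in either direction). The fall of NAT10, the target of the hairpin, was the purpose of the knockdown, so only THUMPD1 is read against that share. Across DLD-1, 1 of the 4 was called lower, NAT10 itself, against 0.0147% of all genes, where every called gene was lower. No THUMPD gene was called in DLD-1. At the limits the study used, a fold change under 0.83 with an unadjusted p under 0.05, the same members passed, with 4.98% of all genes lower in SW480 and 1.34% in DLD-1. Both shNAT10 libraries lay below both controls for NAT10 and THUMPD1 in SW480, as they did for 26.2% of all genes, and for NAT10 in DLD-1, as for 18.2%. A separation of that kind is therefore common among genes, and the THUMPD1 result rests on its size and its test.

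**Figure D4:**
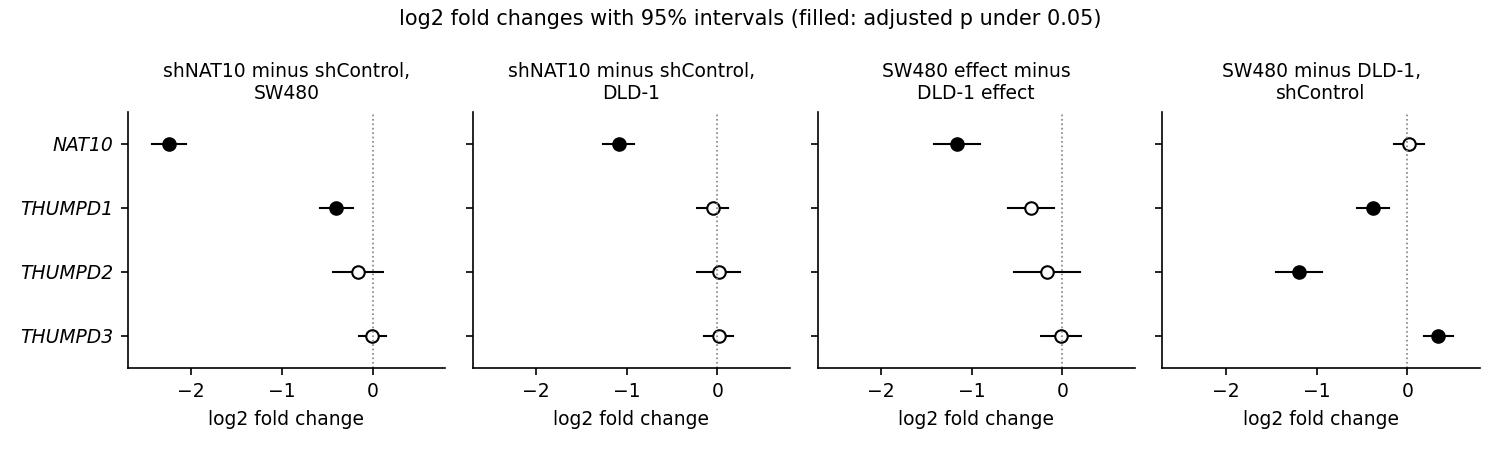
log2 fold changes (x axis) of the 4 genes in the knockdown comparison of each line, the difference between the lines, and SW480 against DLD-1 in shControl, with 95% intervals from edgeR. Filled points have an adjusted p under 0.05; NAT10 stands at −2.25 and −1.09 after knockdown, THUMPD1 at −0.40 in SW480, and the THUMPD genes differ between the lines in shControl, where NAT10 stands at 0.019.

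The 3 THUMPD genes differed between the control cells of the lines, where NAT10 was not called. THUMPD2 was 2.28 times higher in DLD-1 than in SW480 (log2 fold change of SW480 over DLD-1 −1.19 ± 0.118, adjusted p 3.9e-07). THUMPD1 was 1.30 times higher in DLD-1 (−0.37 ± 0.081, adjusted p 0.00077). THUMPD3 went the other way and was 1.27 times higher in SW480 (0.34 ± 0.073, adjusted p 0.00060). The libraries of the 2 lines did not overlap for any of the 3. These are edgeR quasi-likelihood values in a comparison that called 73.8% of all genes, so that a difference between the lines was the usual finding for a gene.

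For THUMPD1 the order of levels was DLD-1 shControl, DLD-1 shNAT10, SW480 shControl and SW480 shNAT10, with the DLD-1 groups overlapping each other. For THUMPD2 both DLD-1 groups, at 40.6 ± 1.73 and 41.0 ± 3.54 CPM, stood above both SW480 groups, at 17.8 ± 1.84 and 15.9 ± 3.05 CPM (SD, n = 2). For THUMPD3 both SW480 groups, at 66.2 ± 1.96 and 66.1 ± 2.82 CPM, stood above both DLD-1 groups, at 52.1 ± 0.543 and 52.6 ± 0.622 CPM (SD, n = 2). Within a line the groups of THUMPD2 and of THUMPD3 overlapped.

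Levels of different genes were compared per length, as FPKM summed over the transcripts of a gene, and described without a test. In SW480 shControl NAT10 had 33.1 and 33.5 FPKM and stood above THUMPD3 (21.6 and 20.4), THUMPD1 (14.3 in both libraries) and THUMPD2 (12.2 and 10.5). In DLD-1 shControl NAT10 had 32.5 and 32.7 FPKM, and the order below it differed, with THUMPD2 at 26.1 and 24.6, THUMPD1 at 18.1 and 18.9 and THUMPD3 at 16.97 and 17.4 FPKM. NAT10 was thus the highest of the 4 genes in every control library, and the THUMPD genes changed places between the lines.
After knockdown NAT10 was the lowest of the 4. In SW480 shNAT10 replicate 1 it had 6.27 FPKM, against 9.17 for THUMPD2, 10.4 for THUMPD1 and 19.2 for THUMPD3. In DLD-1 shNAT10 it had 16.0 and 14.8 FPKM, against 16.6 and 19.5 for THUMPD1, 17.3 and 16.1 for THUMPD3 and 25.02 and 28.6 for THUMPD2. The FPKM of NAT10 relative to THUMPD1 was 2.31 and 2.34 in SW480 shControl and 0.602 in SW480 shNAT10 replicate 1, and 1.80 and 1.73 in DLD-1 shControl against 0.965 and 0.759 in DLD-1 shNAT10. Replicate 2 of SW480 shNAT10 had 7.54 FPKM for NAT10 and incomplete values for the other members.

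THUMPD2 and THUMPD3 were spread over many transcripts. Of 16 THUMPD2 transcripts (10 NM and 6 XM models) 5 were above 0 in every library, and the most abundant was NM_025264.5, XM_011533119.2 or NM_001321469.1, depending on the library. Of 11 THUMPD3 transcripts (2 NM and 9 XM models) 9 were above 0 in every library, and the NM transcripts held 25.3% and 25.3% of the gene in DLD-1 shControl and 36.5% and 34.5% in DLD-1 shNAT10. With NM transcripts alone the log2 fold change of THUMPD3 in DLD-1 was 0.51 with an adjusted p of 0.69 by edgeR, against 0.012 for the whole gene, and its log2 fold change of SW480 over DLD-1 in shControl was 0.73 against 0.34. The division of reads among its models moved these values, and gene totals were used.
THUMPD2 covers chr2:39736060-39779267 on the minus strand, and THUMPD3 covers chr3:9362842-9386791 on the plus strand, where it overlaps SRGAP3, THUMPD3-AS1 and another opposite-strand gene of GENCODE v29. SRGAP3, a GTPase-activating protein gene that shares 212 bases with THUMPD3, held 104 to 148 estimated counts, against 794 to 1164 for THUMPD3. THUMPD3-AS1 overlaps 23950 bases, the whole of THUMPD3, and was not among the genes counted. Reads in that overlap cannot be assigned with certainty either.

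The genes beside the members in the genome were examined in the same fits. Upstream and downstream of NAT10 lie CAPRIN1, an RNA-binding protein gene, and ABTB2. Their log2 fold changes were −0.11 ± 0.068 and 0.042 ± 0.080 in SW480 and 0.022 ± 0.068 and 0.062 ± 0.084 in DLD-1. None of the 8 nearest tested neighbours of the members was called in either line by edgeR's quasi-likelihood test. The lowest adjusted p among them was 0.16, for SETD5 beside THUMPD3 in SW480 (−0.25 ± 0.089, unadjusted p 0.015), and the other neighbours had unadjusted p-values of 0.096 or more.

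Genes that work with the members were taken as lists, and 0 of their 36 tested genes were called after knockdown in either line by edgeR or by DESeq2. Because edgeR called 1.68% of all genes in SW480 and 0.0147% in DLD-1, a count of 0 among 36 is near the share over all genes. An unadjusted p under 0.05 was reached by 19.3% of all genes in SW480 and by 5.96% in DLD-1, and the list counts at that limit are read against these shares. The methyltransferase partner TRMT112, which THUMPD2 and THUMPD3 require, was listed with the other TRMT112-dependent enzymes, of which N6AMT1 could not be matched. The 5 genes tested had a median log2 fold change of 0.0026 in SW480 and −0.072 in DLD-1, beside −0.0095 and 0 over all genes. TRMT112 had 0.12 ± 0.068 in SW480 and −0.072 ± 0.070 in DLD-1. The largest differences were those of ALKBH8, a transfer RNA modification enzyme, in SW480 (−0.13 ± 0.109) and of TRMT11, which itself has a THUMP domain, in DLD-1 (−0.15 ± 0.088). Of these genes 0 had an unadjusted p under 0.05 in either line.

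For the small subunit processome, the assembly in which NAT10 acetylates 18S ribosomal RNA, 0 of 16 genes were called in either line. In SW480 the median log2 fold change was 0.14, and 8 genes had a log2 fold change above 0 with an unadjusted p under 0.05 and 0 below, beside 8.69% of all genes above and 10.6% below. In DLD-1 the median was 0.023 with 0 such genes in either direction, beside 3.03% of all genes above and 2.94% below. Fewer genes of any kind reached this limit in DLD-1. The largest value in SW480 was that of NOL10, at 96.0 and 88.9 CPM in shControl and 108 and 111 CPM in shNAT10 (log2 fold change 0.25 ± 0.070, unadjusted p 0.0034, adjusted p 0.091 by edgeR). NOC4L had the largest value in DLD-1 (0.13 ± 0.125). UTP20, by contrast, had −0.16 ± 0.113 in SW480.
A fit without SW480 shNAT10 replicate 2, which left a lone library in that group, called some processome genes in SW480. It also called genes of the transfer RNA and acetyl-CoA lists described next. Calls over all genes rose as well in that fit, so its list counts are not read.

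Of 7 genes for the charging and modification of serine and leucine transfer RNAs, 0 were called in either line. NSUN2, a transfer RNA cytosine methyltransferase, had 166 and 164 CPM in SW480 shControl and 141 and 154 CPM in SW480 shNAT10 (−0.16 ± 0.066, unadjusted p 0.025, adjusted p 0.20 by edgeR). SARS1, the cytosolic seryl-transfer RNA synthetase, had −0.20 ± 0.078 in DLD-1 (unadjusted p 0.025, adjusted p 0.81) and 0.13 ± 0.077 in SW480. The list medians were −0.080 in SW480 and −0.022 in DLD-1, and 1 of the 7 genes in each line had an unadjusted p under 0.05, beside 19.3% and 5.96% of all genes.

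Of 5 genes whose proteins have been described with NAT10 (SIRT7, MDM2, MORC2, UBTF and LMNA) 0 were called, and 0 had an unadjusted p under 0.05 in either line by edgeR. LMNA, the nuclear lamin A/C gene, had the largest value in SW480 (0.15 ± 0.073), and MDM2, a ubiquitin ligase gene, the largest in DLD-1 (−0.12 ± 0.074), with list medians of 0.030 and 0.048. The 3 genes of acetyl-CoA supply, ACLY, ACSS2 and SLC25A1, behaved likewise, with values of 0.0088 to 0.22 in SW480 and 0.0027 to 0.12 in DLD-1, medians of 0.096 and 0.013, 0 genes called and 0 with an unadjusted p under 0.05.
Between the lines in shControl 30 of the 36 genes (83.3%) were called, beside 73.8% of all genes, with 16 higher and 14 lower in SW480 and 6 not called. By list, 4 of 5 TRMT112 genes were higher in SW480, led by BUD23 at 0.76 ± 0.070, and 7 of 16 processome genes were higher and 6 lower, with MPHOSPH10 at −1.07 ± 0.079. FTSJ1, a transfer RNA ribose methyltransferase, was higher in SW480 by 1.45 ± 0.075, UBTF, the RNA polymerase I factor, was lower by −1.11 ± 0.063, and ACSS2 was higher by 1.14 ± 0.073.

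**Figure D5:**
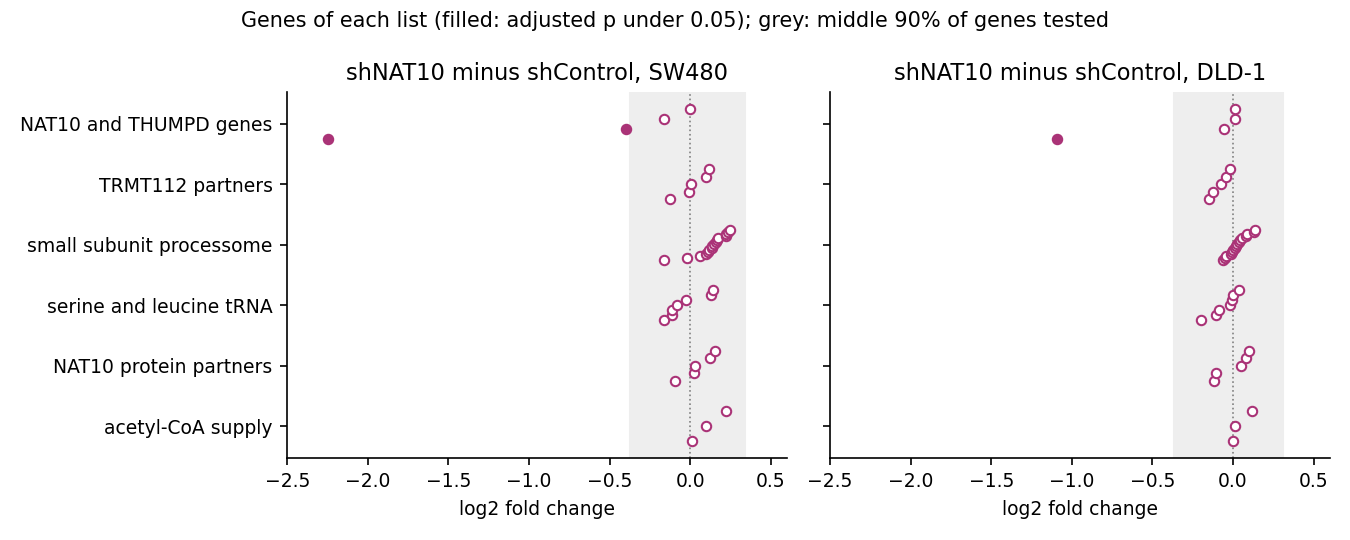
log2 fold change after knockdown (x axis) in SW480 and in DLD-1 for NAT10 and the THUMPD genes and for each gene of the 5 lists, 1 point a gene, with genes of adjusted p under 0.05 filled and the middle 90% of all tested genes in grey. Outside the row of the members no point is filled, and the processome genes in SW480 sit mostly to the right of 0 with a median of 0.14.

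The genes whose levels followed each member most closely were named by Pearson's correlation of log2 CPM over the 8 libraries, among 10939 genes with a mean of at least 5 CPM. The points share 2 cell lines and their controls, and the values describe these libraries only. For NAT10 these were ATG16L1 (0.98), TARS2 (0.97) and CDV3 (0.96), and, with each line centred on its own mean, KLHL8 (0.99), CCL20 (0.99) and TARS2 (0.99). The log2 fold change of KLHL8 was −0.79 ± 0.093 in SW480 (adjusted p 0.00073 by edgeR) and −0.31 ± 0.094 in DLD-1 (adjusted p 0.57). ATG16L1, an autophagy gene, had −0.51 ± 0.081 in SW480 (adjusted p 0.0072) and −0.23 ± 0.081 in DLD-1 (adjusted p 0.70).
CCL20, a chemokine gene, had −1.17 ± 0.187 in SW480 (adjusted p 0.0074 by edgeR) and −0.55 ± 0.092 in DLD-1 (adjusted p 0.070), at levels of 2.05 and 32.1 CPM in the shNAT10 groups.
For THUMPD1 the nearest genes were RLF, SLC30A6 and UBA6 (0.99 each), which like it were higher in DLD-1 than in SW480. Like THUMPD1 they were also lower after knockdown in SW480, at −0.26, −0.38 and −0.29, with both shNAT10 libraries below both controls. Of them only SLC30A6 was called there (adjusted p 0.030 by edgeR), and none was called in DLD-1. For THUMPD2 the nearest genes were PRUNE1, SEPTIN2 and FRK (0.999, 0.998 and 0.997), again higher in DLD-1. For THUMPD3 they were HDGFL3, PLEKHB2 and UTP14A (0.998, 0.995 and 0.994), which were higher in SW480, and UTP14A is itself a factor of the small subunit processome. Correlations this close for THUMPD2 and THUMPD3 mainly restate the separation of the lines.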

How the data were processed

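RNA-seq libraries of SW480 and DLD-1 cells with shControl or shNAT10 were grouped by their labels, 2 in each of 4 groups. The authors deposited estimated counts per RefSeq transcript (42414 NM and 36539 XM models), not normalized, and FPKM per library; the FPKM of SW480 shNAT10 replicate 2 are missing for 14655 transcripts (18.6%). Per the submitters' processing notes HISAT2 2.0.4, Bowtie2 2.2.5, RSEM 1.2.12 and build hg38 were used. The 4 columns of group averages were not used.

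Transcript counts were summed per gene and rounded, filtered by filterByExpr (minimum count 10, minimum total 15), scaled by TMM and fitted as 4 groups with edgeR 4.0.16 (quasi-likelihood, R 4.3.3; biological coefficient of variation 0.0585), although counts per gene had been foreseen. The standard error of an effect was its size over the root of its F statistic. Alternatives used DESeq2 1.42.0, upper-quartile scaling, other filters, each line alone, NM transcripts, limma 3.58.1 on log2 FPKM, a replicate block and leaving out libraries. In simulated data, 97% (SW480) and 99% (DLD-1) of genes with a log2 change of 1 were recovered, and 74% and 77% with 0.5. These shares describe recovery only, and the share of false calls is not reported here. The simulation gave every group the same spread and changed only genes that were not low in counts. Since the real SW480 shNAT10 replicates were the least alike, these shares are not shown to hold for that group. Counting error at 15147805 to 17271336 counts per library limits THUMPD2 most.

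Hairpins and primers came from the study's oligonucleotide list and were placed on GENCODE v29 (GRCh38). Symbols matched 99.3% of genes. The members and lists were chosen with earlier results of these data known. Genes named are the members; of each list those called, otherwise the largest value in each line, and the largest between lines; the nearest tested neighbours; and the 3 genes most correlated with each member. TRMT112 and UTP20 were added after their values were seen. PTPRC among the markers and N6AMT1 were not analysed here, and 1 gene of a list is not reported here. Python 3.11.15 was used.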

Additional observations from a re-analysis of the deposited data

Results flagged for a closer look

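The fall of NAT10 differed between the shNAT10 groups of the cell lines by a test of the difference itself, in libraries whose labels do not say whether both lines carried the same hairpin. The log2 fold change in SW480 minus that in DLD-1 was −1.16 (adjusted p 0.0015 by edgeR's quasi-likelihood test), with all 4 shNAT10 libraries below all 4 shControl libraries and both SW480 shNAT10 libraries below both from DLD-1. Groups of 2 libraries are too small for a search for single libraries that stand apart within a group.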

How the results depend on the processing

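The fall of NAT10 in both lines was called in all 9 alternatives with every library. In the 8 fits without a library it lay at −2.38 to −2.12 in SW480 and −1.15 to −1.03 in DLD-1. For shControl cells, the line differences of THUMPD1, THUMPD2 and THUMPD3 were called in all 8 alternatives with every library that compared them. Without a library these shControl differences lay at −0.40 to −0.36, −1.30 to −1.09 and 0.31 to 0.37. The lone library left in a group was assumed to vary like the other groups. The difference between the lines in the fall of NAT10 was not called with NM transcripts only (−1.16), log2(FPKM + 1) (−1.09) or log2(FPKM + 0.1) (−1.18). This difference lay at −1.28 to −1.04 without a library. THUMPD1 in SW480 was not called without a filter on low counts (−0.40), with each line alone (−0.39), NM transcripts only (−0.43), log2(FPKM + 1) (−0.42) or log2(FPKM + 0.1) (−0.46), and lay at −0.44 to −0.35 without a library. The FPKM fits of the THUMPD genes lack SW480 shNAT10 replicate 2. The cause was not tested.

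Signs turned only for values that were not called. Without a library THUMPD1 in DLD-1 ranged from −0.16 to 0.049, THUMPD2 from −0.37 to 0.030 in SW480, −0.078 to 0.098 in DLD-1 and −0.38 to 0.016 for the difference, and THUMPD3 from −0.045 to 0.049, −0.00023 to 0.024 and −0.058 to 0.034. THUMPD2 in DLD-1 was −0.024 with NM transcripts only. THUMPD3 in SW480 was 0.0059 with DESeq2, 0.0086 with upper-quartile scaling, 0.010 with each line alone and 0.021 with NM transcripts only, in DLD-1 −0.037 and −0.039 on log2(FPKM + 1) and log2(FPKM + 0.1), and 0.0018 for the difference with upper-quartile scaling.

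The number of genes called in SW480 (229) was 41 without a filter, 29 with each line alone, 22 with NM transcripts only, 49 and 37 on log2(FPKM + 1) and log2(FPKM + 0.1), and 17 to 2162 without a library. In DLD-1 (2) it was 25 with DESeq2, 1 without a filter, 38 with each line alone, 1 on log2(FPKM + 1) and 1 to 29 without a library. For the difference (1) it was 21 with DESeq2, 0 with NM transcripts only and on either FPKM scale, and 0 to 346 without a library. Same-numbered libraries deviated from their group means with correlations of 0.13 in SW480 and 0.036 in DLD-1 over 13619 genes, and nothing in the labels ties the numbers, so they were not taken as pairs. With a replicate block 1472, 63 and 112 genes were called in these comparisons, THUMPD1 in SW480 had an adjusted p of 0.0020, and no call of a member changed. Depth limits THUMPD2, at 234 to 713 counts a library.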
